A study of Mus musculus with 2 samples.

Results

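The cells described here are liver sinusoidal endothelial cells of the Gimap5sph/+ (sph/+) mouse that carried transcripts of Rspo3, the gene of a secreted enhancer of Wnt signalling. They were chosen by their own counts: a droplet barcode of the sph/+ library had to hold at least 500 genes, at least 1000 unique molecular identifiers (UMIs, the tags that count individual transcript molecules) and at most 15% mitochondrial UMIs, with at least 3 UMIs of Clec4g, at least 1 of Stab2 and at least 2 of Rspo3. At most 1 UMI of Vwf, a gene of larger vessels, and at most 2 UMIs summed over the division genes Mki67, Top2a, Cenpf and Birc5 were allowed. Of 11434 sph/+ barcodes with the Clec4g and Stab2 counts, 552 met all limits, a share of 4.83% (95% Clopper-Pearson interval 4.44 to 5.24%), and the other 10882 served for comparison. These 552 are 552 of 13136 barcodes deposited for sph/+ and of 29522 in the series. A barcode is called a cell here, although a droplet can hold more than 1 cell.

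The series holds DAPI-negative, CD45-negative, CD31-positive liver endothelial cells that were sorted from 1 adult Gimap5sph/sph mouse and 1 adult Gimap5sph/+ mouse, both of C57BL/6 background, and sequenced with the Chromium 3′ kit, version 3. Both mice carry the sph allele of Gimap5, on both chromosomes in sph/sph and on 1 in sph/+, and no mouse without it is part of the data used here. With 1 library per genotype and cells that are not replicates, no test was possible, and all intervals cover counting error only. Levels are a gene's UMIs, summed over the cells of a group, per 1000000 UMIs of that group (CPM), and since Rspo3 chose the cells, every difference from the other cells is a description.

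The hepatic lobule is arranged around a central vein, and its endothelium sends Wnt ligands and R-spondins to neighbouring hepatocytes, which then maintain the pericentral metabolic programme. R-spondin 3, the product of Rspo3, binds LGR receptors and the ubiquitin ligases ZNRF3 and RNF43 and so keeps Frizzled receptors at the cell surface. Wnt2 and Wnt9b are the main Wnt ligands of the central vein endothelium and of the adjacent sinusoids, while sinusoids near the portal tract carry arterial-type transcripts such as Efnb2 and Dll4.

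The markers of the label were read first. They were named with earlier results of these data known, so their levels describe the label and do not test it. The 5 markers fixed for these cells were Rspo3, Wnt2, Kit, Ackr4 and Ltc4s. The 4 that did not choose the cells were all at least 1.5-fold higher than in the other sinusoidal cells, at a median log2 ratio of 1.35 (1 CPM added to both levels, as in all log2 ratios here). Wnt2 had a median of 4 UMIs per Rspo3-positive cell (lowest 0, highest 19) and of 1 UMI per other cell (highest 18). Summed, Wnt2 stood at 875 CPM (95% exact Poisson interval 842 to 909) in Rspo3-positive cells and at 351 CPM (346 to 356) in the others. The single-cell counts thus overlap widely although the summed level was 2.49-fold higher (2.39 to 2.60). Kit, a receptor tyrosine kinase of central-side sinusoids, stood at 551 CPM (525 to 578) against 289 CPM (285 to 294). Ltc4s, leukotriene C4 synthase, stood at 204 CPM (189 to 221) against 71.8 CPM (69.6 to 74.0). Ackr4, an atypical receptor that removes CCL19 and CCL21, stood at 96.2 CPM (85.5 to 108) against 36.5 CPM (34.9 to 38.1). Sinusoidal identity was kept by rule through Clec4g and Stab2. Of 10 measured sinusoidal identity genes outside the rule none was at least 1.5-fold higher and 1, Gpr182, at least 1.5-fold lower. All 15 pan-endothelial genes lay within 1.5-fold of the other cells, although 1, Emcn, passed that limit without the marked cells described next (log2 ratio 0.62) and against cells with no Rspo3 UMI (0.59). The place of these cells in the lobule was not measured, and the transcripts alone carry the pericentral label.

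Depth was close between the groups: the median was 4300 UMIs and 2157 genes in Rspo3-positive cells, over a range of 1336 to 25424 UMIs, and 4615 UMIs and 2207 genes in the other cells. Mitochondrial genes took 5.31% of UMIs in Rspo3-positive cells and 6.19% in the others. The libraries held 68983780 UMIs in sph/sph and 64460283 in sph/+, and shared 30 barcodes, of which 0 were among the 552. Some droplets held transcripts of other liver cells. The rule on such droplets was 10 or more UMIs of a marker list for cholangiocytes, hepatocytes, Kupffer cells and leukocytes, stellate cells and fibroblasts, or mesothelium. It marked 38 Rspo3-positive cells (6.88%, 4.92 to 9.33%) and 363 others (3.34%, 3.01 to 3.69%), and values without them are given where a named gene passed or missed the 1.5-fold limit otherwise, where its ratio moved by over 1.5 times or where the count of a list changed.

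Rspo3 itself ran from 2 to 29 UMIs per cell with a median of 4. It lies on chromosome 10, from 29452416 to 29535867 on the minus strand (ENSMUSG00000019880; this and all later positions are gene spans in GENCODE M21 on GRCm38, the mm10 build). Its level was 988 CPM in the chosen cells and 25.5 CPM in the others, which the rule fixed. Among the others, 10356 cells had no Rspo3 UMI and 464 had 1. A further 49 cells with at least 2 Rspo3 UMIs were kept out by Vwf and 13 by division genes.

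Outside the rule genes, 7028 genes reached 20 CPM in either group. At least 1.5-fold higher in Rspo3-positive cells were 262 genes (3.73%), and at least 1.5-fold lower were 102 (1.45%). The median log2 ratio over all measured genes was 0.03. At a 2-fold limit the numbers were 99 higher and 30 lower. Without the marked cells the numbers were 222 higher (3.2%) and 121 lower (1.74%) of 6946, of which 185 and 92 were also called with them. Most genes thus lay within 1.5-fold, and the genes named next carried the larger differences. The counts given for gene lists below are to be read beside the shares over all measured genes, 3.73% higher and 1.45% lower.

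**Figure D1:**
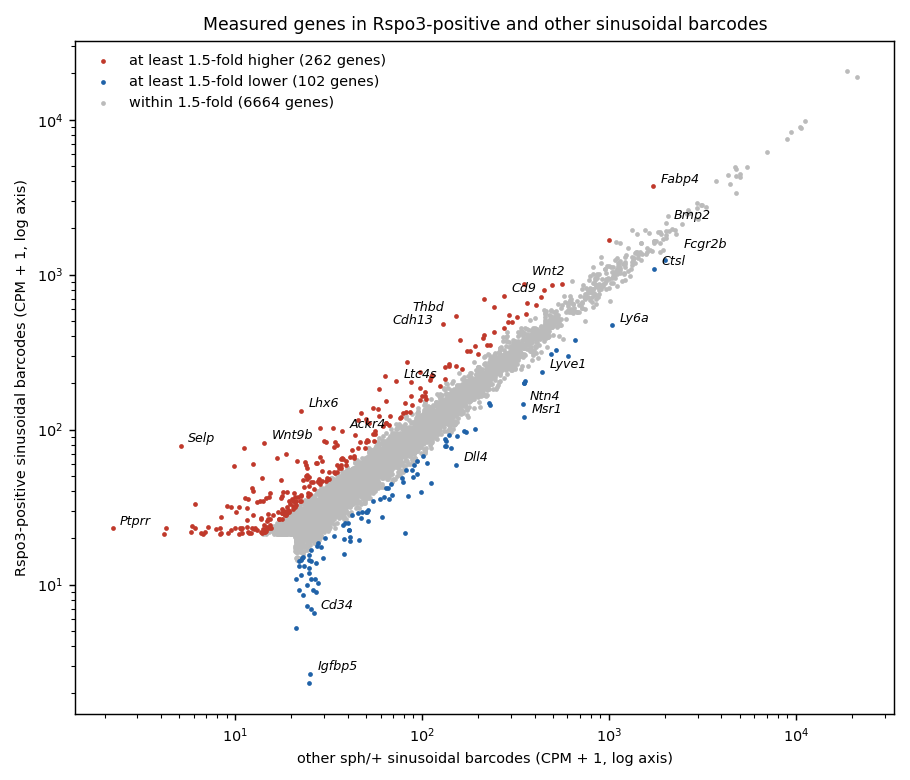
Level of each of 7028 measured genes in 552 Rspo3-positive cells (vertical) and 10882 other sinusoidal cells (horizontal) of sph/+, both as CPM + 1 on log axes. Red points are the 262 genes at least 1.5-fold higher, blue points the 102 at least 1.5-fold lower and grey points the rest. Most genes follow the diagonal, with Selp, Lhx6 and Wnt9b far above it and Igfbp5, Cd34 and Msr1 below it.

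Of the secreted Wnt genes, Wnt9b had the largest ratio that did not rest on marked cells. Wnt9b (chromosome 11, 103727364 to 103749821, minus strand) stood at 80.8 CPM (71.0 to 91.6) in Rspo3-positive cells and at 13.3 CPM (12.4 to 14.3) in the others, a 6.06-fold difference (5.22 to 7.0). It was seen in 154 of the 552 cells (27.9%) and in 4.94% of the others, so most Rspo3-positive cells gave no Wnt9b UMI at their own depth. Wnt2 (chromosome 6, 17988940 to 18030585, minus strand) was seen in 532 of the 552 (96.4%) and in 59.6% of the others. Dkk3, a secreted Dickkopf-family glycoprotein, stood at 35.8 CPM (29.4 to 43.2) against 20.6 CPM (19.4 to 21.8). Wls, the carrier that brings Wnt proteins to the cell surface, lay within 1.5-fold, at 174 CPM against 156 CPM; it was named after its values were seen. Wnt4 was 3.64-fold higher, but 93.5% of its UMIs came from 12 cells marked as holding cholangiocyte transcripts, and without all marked cells its log2 ratio was 0.08. Over 6 measured genes of 25 in the list of Wnt ligands, enhancers and antagonists, 4 were at least 1.5-fold higher and 0 lower, at a median of 1.04. Without the marked cells these were 3 higher and 0 lower at a median of 0.44.

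Genes that receive Wnt signals lay close to their levels in the other cells. Of 14 measured receptors and response genes of 33 in the list, 0 were at least 1.5-fold higher and 1 lower, at a median log2 ratio of 0.05. Fzd4, a Frizzled receptor abundant in endothelium, stood at 295 CPM (276 to 315) in Rspo3-positive cells and 232 CPM (228 to 236) in the others. Its co-receptor gene Lrp5 stood at 107 CPM (95.8 to 119) against 74.2 CPM (72.0 to 76.5), at a log2 ratio of 0.52, and of 0.61 without the marked cells, where it was the 1 gene of the list past 1.5-fold higher. The gene that was lower was Ccnd1, cyclin D1, at 204 CPM (188 to 221) against 355 CPM (350 to 360), 1.74 times lower (1.61 to 1.89). Over the alternatives its log2 ratio ran from -1.37 to -0.44, which reaches within 1.5-fold. The R-spondin receptor Lgr4 was at 2.96 CPM (1.35 to 5.61) against 2.80 CPM (2.38 to 3.27), from 9 and 157 UMIs. Lgr5 had 0 UMIs against 3. Axin2, a common target of canonical Wnt signalling, was at 1.97 CPM (0.72 to 4.29) against 1.96 CPM (1.61 to 2.36), so a difference of 2-fold in either direction could not be seen at this depth.

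Of 28 measured adhesion and guidance genes 6 were at least 1.5-fold higher and 4 lower, at a median log2 ratio of 0.06. Over all measured genes 3.73% were higher and 1.45% lower. Thbd, thrombomodulin, which turns thrombin into an activator of protein C, lies on chromosome 2 from 148404466 to 148408188 (minus strand). It had a median of 2 UMIs per Rspo3-positive cell (lowest 0, highest 23) and of 0 per other cell (highest 22), and stood at 539 CPM (513 to 565) against 150 CPM (147 to 154), 3.58-fold higher (3.40 to 3.78). Cdh13, T-cadherin, a cadherin held to the membrane by a lipid anchor, stood at 478 CPM (453 to 503) against 128 CPM (125 to 131), 3.72-fold higher (3.51 to 3.94). Cd9, a tetraspanin, stood at 727 CPM (697 to 758) against 274 CPM (270 to 279). Selp, P-selectin, which tethers leukocytes and is typical of veins, lies on chromosome 1 from 164115264 to 164150026 (plus strand) and had the largest ratio of all measured genes. It stood at 77.8 CPM (68.3 to 88.4), from 237 UMIs in 154 cells (27.9%), against 4.13 CPM (3.62 to 4.70), from 232 UMIs in 1.64% of the cells. That is 18.8-fold higher (15.7 to 22.7), with 9.28% of the UMIs of Rspo3-positive cells in the 12 cholangiocyte-marked ones and a log2 ratio of 3.96 without all marked cells. That ratio was 3.94 as reported and 4.63 against cells with no Rspo3 UMI and within the Vwf and division limits. Plvap, the diaphragm protein of fenestrae and caveolae, stood at 319 CPM (299 to 340) against 179 CPM (176 to 183). It was the 1 gene at least 1.5-fold higher of 15 measured caveolae and fenestrae genes, beside 1 lower, and without the marked cells 3 were higher and 1 lower.

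Several less abundant genes had large ratios as well. Ptprr, a receptor-type tyrosine phosphatase, stood at 22.0 CPM (17.1 to 27.9) in Rspo3-positive cells against 1.21 CPM (0.94 to 1.54), from 67 and 68 UMIs. Plppr5, of the phospholipid phosphatase-related family, stood at 75.2 CPM (65.8 to 85.6) against 10.1 CPM (9.27 to 10.9). Lhx6, a LIM homeobox transcription factor, stood at 131 CPM (119 to 145) against 21.6 CPM (20.4 to 22.8), 6.07-fold higher (5.41 to 6.80). It was far ahead of the other transcription factors. Of 30 measured, 3 were at least 1.5-fold higher, Lhx6 and Klf4 among them, and 1 lower (Irf8), at a median log2 ratio of 0.01. Without the marked cells 4 were higher and 0 lower, with Irf8 at a log2 ratio of -0.55 in place of -0.60. Klf4, a shear-responsive factor, stood at 450 CPM (427 to 475) against 273 CPM (268 to 277). Gata4, which maintains sinusoidal identity, stood at 274 CPM (256 to 293) against 272 CPM (267 to 276), a ratio of 1.01 (0.94 to 1.08), and Maf at 2483 CPM (2427 to 2540) against 2703 CPM (2689 to 2717). Rnf165, a RING ubiquitin ligase gene, stood at 22.3 CPM against 3.26 CPM, and Gjc1, the gene of a gap junction connexin, was 6.35-fold higher (4.67 to 8.55). Ntn1, a secreted netrin, was 4.75-fold higher (3.60 to 6.19), while Ntn4 of the same family was lower, as given with the portal-side genes. Lmcd1, a LIM-domain cofactor, stood at 68.6 CPM against 17.8 CPM.

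Receptors and scavengers of chemokines split by gene. Ackr3, a decoy receptor for CXCL12, stood at 58.8 CPM (50.5 to 68.1) in Rspo3-positive cells and 11.4 CPM (10.6 to 12.3) in the others, 5.15-fold higher (4.34 to 6.09). Ackr4 was also higher, as given above among the markers. Ackr1, the Duffy antigen chemokine receptor, was lower at 5.91 CPM (3.50 to 9.34) against 24.4 CPM (23.1 to 25.7), from 18 and 1368 UMIs. Cxcl9, an interferon-induced chemokine, stood at 44.0 CPM (36.9 to 52.1) against 110 CPM (107 to 113). Of 22 measured chemokine and interferon response genes 3 were at least 1.5-fold higher and 3 lower, at a median of -0.23, or 3 higher and 4 lower without the marked cells, and of 13 antigen presentation genes 0 were called in either direction. Ramp3, an accessory protein of the adrenomedullin receptor, stood at 64.7 CPM (56.0 to 74.4) against 15.7 CPM (14.7 to 16.8). Of 18 measured VEGF, angiopoietin and apelin receptor genes it was the 1 gene at least 1.5-fold higher, with 0 lower, and without the marked cells 2 were higher, Lifr at a log2 ratio of 0.59 being the other.

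Genes of lipid mediators and metabolism went in both directions. Fabp4, a fatty acid-binding protein of capillary and venous endothelium, stood at 3722 CPM (3654 to 3791) in Rspo3-positive cells and 1721 CPM (1710 to 1732) in the others. Ptgs1, cyclooxygenase 1, stood at 657 CPM (629 to 687) against 362 CPM (357 to 367). With Ltc4s it made up the 2 genes at least 1.5-fold higher of 8 measured vasoactive and eicosanoid genes, of which 0 were lower with the marked cells and 1 without them. Pltp, the phospholipid transfer protein, stood at 22.3 CPM (17.3 to 28.3) against 5.09 CPM (4.52 to 5.72). Ass1, argininosuccinate synthase, stood at 30.5 CPM (24.7 to 37.4) against 8.44 CPM (7.70 to 9.24), while Glul, glutamine synthetase, was lower at 198 CPM (182 to 214) against 350 CPM (345 to 355). Cd36, a fatty acid translocase, was lower at 380 CPM (359 to 403) against 655 CPM (649 to 662), and Gatm, the first enzyme of creatine synthesis, stood at 700 CPM (671 to 731) against 855 CPM (848 to 863). Of 25 measured lipid genes 2 were at least 1.5-fold higher and 1 lower, and of 18 metabolic enzyme genes 1 was higher and 1 lower. Over all measured genes 3.73% were higher and 1.45% lower. Without the marked cells 1 lipid gene was higher and 2 lower, and 3 metabolic enzyme genes were higher and 1 lower. Of 21 hypoxia and glycolysis genes 1, Vegfa, was higher, at 25.9 CPM against 12.7 CPM, with 29.1% of its UMIs in the 12 cholangiocyte-marked cells.

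Genes listed for the portal side of the sinusoid were mostly lower. This list and the central-side list were chosen with earlier results of these data known, so their counts describe the cells and test nothing. Of 20 in the portal-side list 16 were measured, of which 10 were at least 1.5-fold lower and 2 at least 1.5-fold higher, at a median log2 ratio of -0.78 against 0.03 over all measured genes. Msr1, a class A scavenger receptor, was seen in 122 of the 552 cells (22.1%) and in 57.9% of the others, and stood at 120 CPM (108 to 133) against 351 CPM (346 to 356), 2.92 times lower (2.63 to 3.24). Dll4, a Notch ligand of arterial endothelium, stood at 58.1 CPM (49.9 to 67.4) against 151 CPM (148 to 155), 2.60 times lower (2.24 to 3.04). Ntn4, a basement membrane netrin, stood at 146 CPM (133 to 160) against 344 CPM (340 to 349). Efnb2, the arterial ephrin, stood at 77.8 CPM (68.3 to 88.4) against 133 CPM (130 to 136). Ltbp4, a latent TGF-beta binding protein, stood at 296 CPM (277 to 316) against 605 CPM (599 to 612). Cd34, a sialomucin of continuous endothelium, stood at 5.58 CPM (3.25 to 8.94) against 25.3 CPM (24.0 to 26.6), from 17 and 1419 UMIs. Adgrg6, an adhesion G protein-coupled receptor, stood at 18.4 CPM (13.9 to 23.9) against 45.2 CPM (43.5 to 47.0), from only 19 of the 552 cells. Its log2 ratio was -1.25, but -2.24 without the marked cells and -0.67 against cells with no Rspo3 UMI and within the Vwf and division limits. The 2 higher ones were Gja4, an arterial connexin gene, named after its values were seen, at 493 CPM against 288 CPM, and Clu, clusterin, with 97.2% of its UMIs in the 12 cholangiocyte-marked cells and a log2 ratio of 0.00 without all marked cells, which leave 1 higher and 10 lower. Of 17 measured central-side genes, 13 were at least 1.5-fold higher and 1 lower, at a median of 1.32. The lower one was Rnd3, named after its values were seen, at 45.0 CPM against 78.0 CPM. The 4 markers of the label other than Rspo3 are among these 17.

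Notch genes followed no single direction. Of 9 measured, 1 was at least 1.5-fold higher and 3 lower, at a median of -0.25. Lfng, a Fringe glycosyltransferase that modifies Notch receptors, stood at 109 CPM (97.6 to 121) in Rspo3-positive cells against 51.3 CPM (49.5 to 53.2). Mfng of the same family stood at 28.2 CPM (22.6 to 34.9) against 46.7 CPM (44.9 to 48.5), and Nrarp, a Notch-induced feedback gene, at 33.5 CPM (27.3 to 40.7) against 53.9 CPM (52.0 to 55.9). Against cells with no Rspo3 UMI Nrarp lay just within 1.5-fold (log2 ratio -0.58), which leaves 2 lower Notch genes. Of 21 BMP and TGF-beta genes 0 were higher and 1, Ltbp4, lower, at a median of 0.09. Bmp2, an endothelial signal for hepcidin, stood at 2162 CPM (2110 to 2215) against 2031 CPM (2019 to 2042), and Bmp6 at 104 CPM (92.7 to 116) against 121 CPM (118 to 124). Of 21 matrix genes 6 were higher and 2 lower, beside 3.73% and 1.45% of all measured genes. Fbln2, fibulin 2, stood at 33.8 CPM (27.6 to 41.0) against 13.1 CPM (12.2 to 14.1). Its log2 ratio of 1.30 became 3.09 against cells with no Rspo3 UMI and within the Vwf and division limits, and ran from 0.53 to 3.09 over the alternatives. Adamts1, a secreted protease, stood at 207 CPM (191 to 224) against 110 CPM (107 to 112), and Lama4, a laminin chain of vessels, at 99.2 CPM (88.3 to 111) against 190 CPM (187 to 194).

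The scavenger programme of the sinusoid was largely kept, with some members lower. Of 15 measured lectins and scavenger receptors 1 was at least 1.5-fold higher and 4 lower, at a median of -0.15, and without the marked cells 0 were higher and 4 lower. Lyve1, a hyaluronan receptor, had the largest gap after Msr1, at 234 CPM (217 to 252) against 440 CPM (434 to 445). Gpr182, a chemokine-scavenging receptor of the sinusoid, stood at 1243 CPM (1204 to 1284) against 1993 CPM (1981 to 2005). Fcgr2b, the Fc receptor that clears immune complexes, stood at 1832 CPM (1784 to 1881) against 2291 CPM (2279 to 2304), within 1.5-fold, and Stab1, a hyaluronan and scavenger receptor, had a log2 ratio of -0.20. Ctsl, cathepsin L, was the 1 lower gene of 22 measured lysosome and endocytosis genes, at 1090 CPM (1053 to 1127) against 1742 CPM (1731 to 1753), and 0 were higher. The lowest ratios of all lay in sparse genes. Igfbp5, an insulin-like growth factor binding protein, had 5 UMIs against 1357, at a log2 ratio of -3.25, and of -2.57 without the marked cells. Its UMIs lay in 4 of the 552 cells (0.72%) and in 153 of the others (1.41%), so the ratio rests on few cells. Htra1, a secreted serine protease, had 13 UMIs against 1130. Ube2c, Cdk1 and Stmn1 are cell cycle genes and were also low. The rule keeps dividing cells out of the 552 only, and against the other cells with no Rspo3 UMI, among which limits on Vwf and division genes also held, their log2 ratios were 0.41 for Ube2c, -0.65 for Cdk1 and -0.39 for Stmn1.

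**Figure D2:**
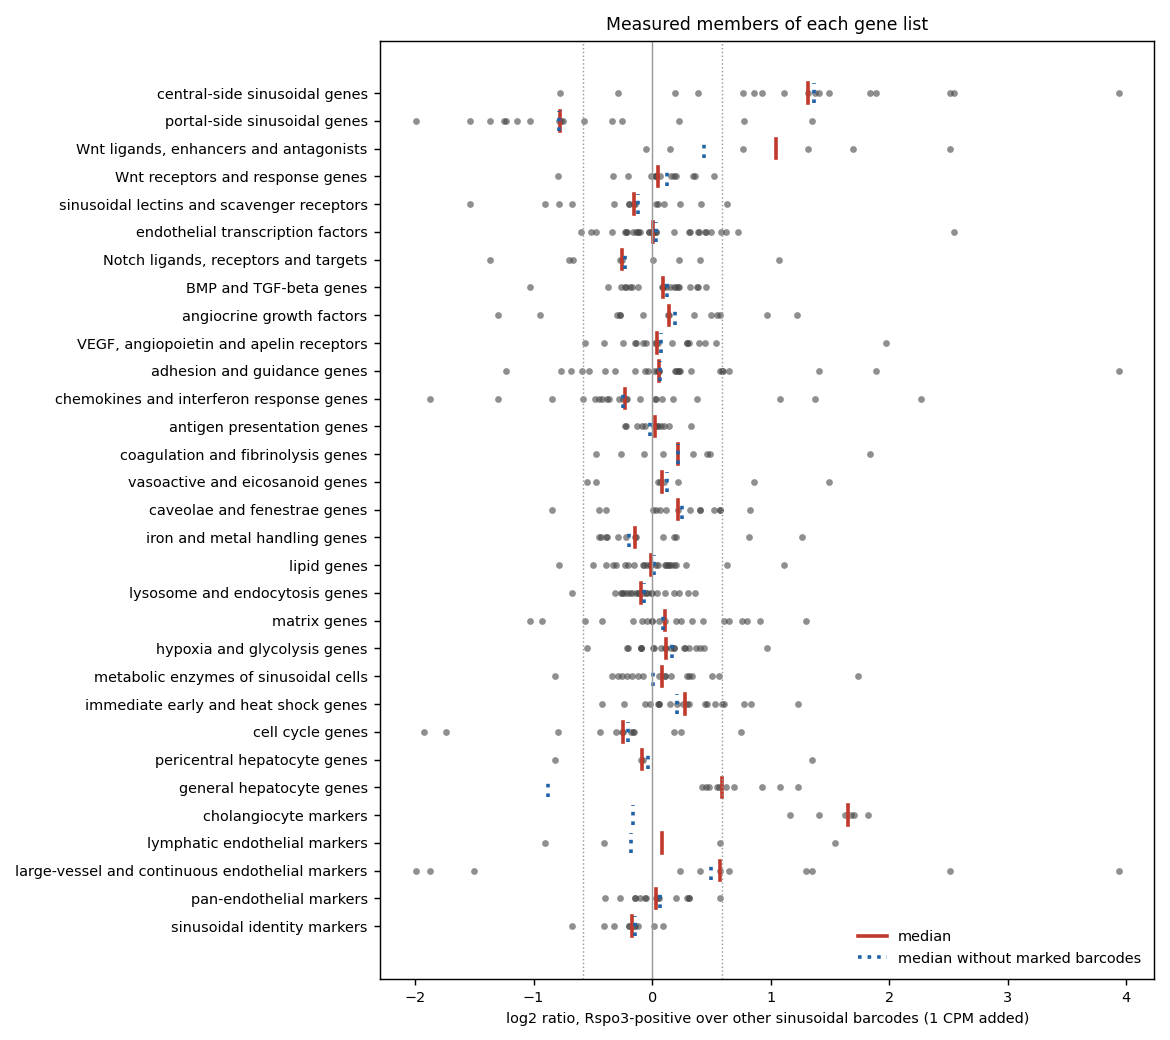
Log2 ratio of Rspo3-positive over other sinusoidal cells for each measured member of the gene lists (grey points), with the list median (red bar) and the median without marked cells (dotted blue bar). Dotted vertical lines mark 1.5-fold in either direction. Central-side genes lie to the right (median 1.32) and portal-side genes to the left (median -0.78), most other medians lie near 0, and the cholangiocyte and general hepatocyte medians lie right of 0 with the marked cells and left of it without them. The cholangiocyte and general hepatocyte lists also set which cells were marked. All lists were chosen with earlier results of these data known.

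The 552 cells were then set beside 4 other groups of sinusoidal cells within the same Vwf and division limits. These were 449 cells with 1 Rspo3 UMI, just outside the rule, and 3 groups of cells with none. The 5538 central-side cells had at least 2 UMIs of Kit and Wnt2 together. The 2440 portal-side cells had no Kit or Wnt2 UMI and at least 2 of Msr1 and Ntn4. The remaining 2018 were called intermediate. They held either a single UMI of Kit or Wnt2, with any number of Msr1 and Ntn4, or no Kit or Wnt2 UMI and under 2 of Msr1 and Ntn4. Genes that set a group are not read in it. Wnt9b stood at 80.8, 37.9, 16.8, 2.40 and 0.73 CPM in Rspo3-positive cells, cells with 1 Rspo3 UMI, central-side, intermediate and portal-side cells. Lhx6 stood at 131, 66.1, 29.7, 4.8 and 0.55 CPM in the same order, and Cdh13 at 478, 298, 168, 58.7 and 21.8 CPM. Ltc4s stood at 204, 138, 91.6, 41.0 and 26.9 CPM over the 5 groups. The intervals of neighbouring groups did not overlap for Lhx6 and Cdh13, so each step was larger than counting error. The single intervals of Wnt9b also stayed apart, with the narrowest gap between intermediate cells (1.49 to 3.67) and portal-side cells (0.32 to 1.44).

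Some other genes that were highest in Rspo3-positive cells did not separate intermediate from portal-side cells, or were lowest in the intermediate ones. Selp stood at 77.8 CPM in Rspo3-positive cells, 13.1 CPM in cells with 1 Rspo3 UMI, 3.27 CPM in central-side cells and under 1 CPM in the other two groups, from 7 and 3 UMIs. Thbd stood at 539, 272 and 168 CPM in the first 3 groups, then 89.0 CPM in intermediate cells (82.9 to 95.5) and 94.7 CPM in portal-side cells (89.0 to 101), whose intervals overlap. Fabp4 and Cd9 were lowest in intermediate cells, with 3722 CPM of Fabp4 in Rspo3-positive cells, 1280 CPM in intermediate cells and 1592 CPM on the portal side.

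Genes lower in the Rspo3-positive cells had more than 1 pattern over the groups. Dll4 stood at 58.1, 94.3, 108, 176 and 252 CPM in the order given, and Ltbp4 at 296, 381, 494, 693 and 874 CPM, so both were lowest in Rspo3-positive cells and highest on the portal side. Efnb2 did not separate the first 2 groups, with 77.8 CPM (68.3 to 88.4) in Rspo3-positive cells and 77.3 CPM (67.0 to 88.8) in cells with 1 Rspo3 UMI, and stood at 85.4, 150 and 254 CPM in central-side, intermediate and portal-side cells. Lyve1 was low at both ends, at 234 CPM (217 to 252) in Rspo3-positive and 249 CPM (240 to 259) in portal-side cells, against 521 CPM in central-side and 481 CPM in intermediate cells. Gatm stood at 700 CPM (671 to 731) in Rspo3-positive cells and was highest in central-side cells, at 1019 CPM (1008 to 1031). Ctsl stood at 1090 CPM in Rspo3-positive cells and between 1480 and 1962 CPM in the 4 other groups. Gata4 stood between 269 and 293 CPM in all 5 groups.

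**Figure D3:**
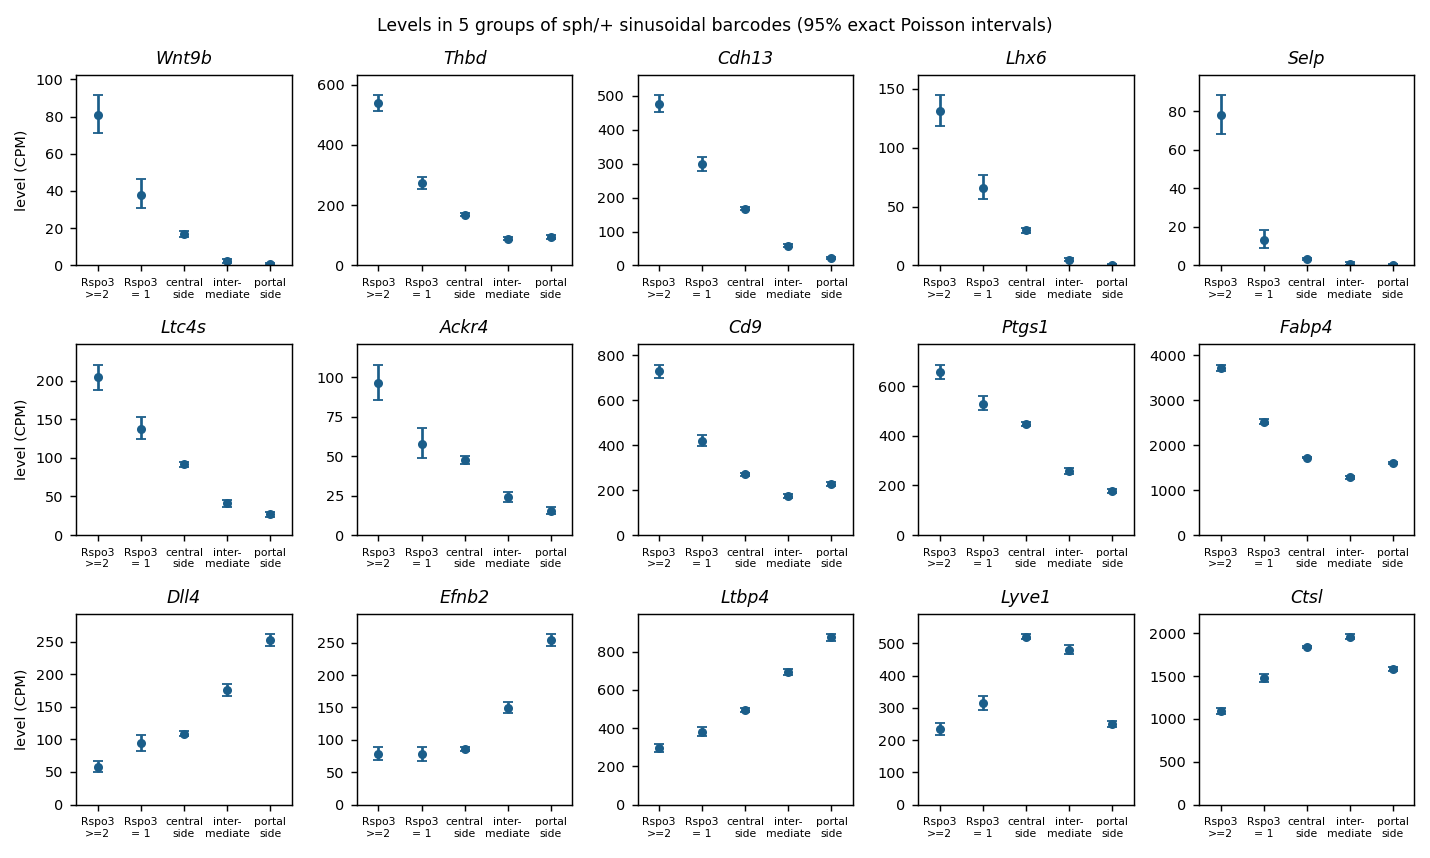
Level in CPM of 15 genes in 552 Rspo3-positive cells, 449 cells with 1 Rspo3 UMI, 5538 central-side, 2018 intermediate and 2440 portal-side cells of sph/+, with 95% exact Poisson intervals. The first 10 panels have their highest point in the Rspo3-positive cells, Dll4, Efnb2 and Ltbp4 have theirs on the portal side, and Lyve1 is low at both ends.

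Within the chosen cells the number of Rspo3 UMIs varied: 177 cells had 2, 83 had 3, 62 had 4, 153 had 5 to 9 and 77 had 10 or more. Median depth was 4454 UMIs in cells with 2 Rspo3 UMIs and 4435 UMIs in cells with 10 or more, close at both ends. Just outside and just inside the limit, at 1 and 2 Rspo3 UMIs, Wnt2 stood at 655 CPM (624 to 686) and 764 CPM (711 to 820), Thbd at 272 CPM (252 to 293) and 393 CPM (356 to 434), and Wnt9b at 37.9 CPM (30.8 to 46.2) and 36.8 CPM (25.9 to 50.8). For Wnt2 and Thbd the 2 intervals stayed apart, while for Wnt9b they overlap. The classes are raw counts of the gene that chose the cells. Whether they are steps of a gradient or mixtures of unlike cells was not tested.

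From 2 Rspo3 UMIs upward the genes differed in how far they went on. Selp stood at 38.8 CPM (27.6 to 53.1) with 2 Rspo3 UMIs, 89.2 CPM (70.1 to 112) with 5 to 9 and 178 CPM (142 to 221) with 10 or more. Wnt9b stood at 36.8, 75.4, 76.0, 104 and 142 CPM over the 5 classes from 2 to 10 or more. Thbd stood at 393, 503, 592, 602 and 737 CPM. Wnt2 levelled off: it stood at 866 CPM (781 to 958) with 3, 932 CPM (827 to 1048) with 4 and 960 CPM (873 to 1052) with 10 or more Rspo3 UMIs, and these intervals overlap. Ltc4s and Ackr4 showed no order within the chosen cells. Ackr4 stood at 79.7 CPM (63.2 to 99.2) with 2 and 72.2 CPM (49.99 to 101) with 10 or more Rspo3 UMIs.

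Lyve1 and the rule genes Clec4g and Stab2 were lower with 10 or more Rspo3 UMIs than with 2. Clec4g stood at 3526 CPM (3410 to 3644) with 2 Rspo3 UMIs and 2446 CPM (2306 to 2591) with 10 or more, and Stab2 at 1463 CPM (1389 to 1540) and 940 CPM (855 to 1032). Lyve1 stood at 281 CPM (249 to 316) with 2 and 108 CPM (80.6 to 142) with 10 or more. Fabp4 ran the other way, at 3059 CPM and 4857 CPM, and Gata4 stayed between 235 and 304 CPM over the 5 classes. Since Clec4g and Stab2 also set the lower limit of the rule, their levels here are those of cells that passed it.

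**Figure D4:**
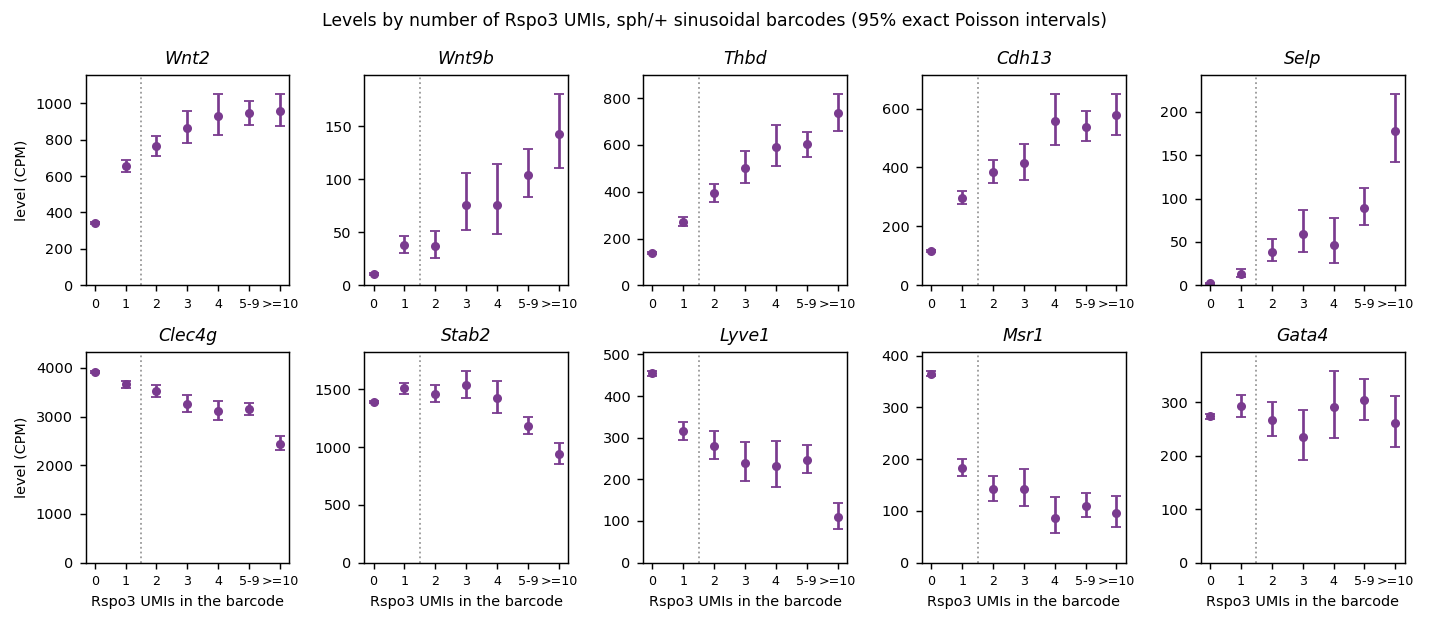
Level in CPM of 10 genes in sph/+ sinusoidal cells grouped by their number of Rspo3 UMIs, from 0 to 10 or more, with 95% exact Poisson intervals. The dotted line between 1 and 2 is the limit of the rule. Selp and Wnt9b go on to their highest level in the last class, Wnt2 flattens after 3 UMIs, Clec4g, Stab2 and Lyve1 have their lowest level in the last class and Gata4 is flat.

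To compare shares of cells at equal depth, every cell was thinned to 3000 UMIs, which left out 55 Rspo3-positive cells and 1609 others and kept 497 and 9273. Wnt2 was then seen in 89.5% of Rspo3-positive cells (86.5 to 92.1%) and 49.9% of the others (48.9 to 50.9%). Kit was seen in 74.4% against 45.7%, Ltc4s in 46.3% against 16.6% and Ackr4 in 23.7% against 10.1%. In cells with 1 Rspo3 UMI, Kit was seen in 70.5% (65.8 to 74.9%), which overlaps the interval of Rspo3-positive cells (70.4 to 78.2%). Ltc4s and Ackr4 were lower in cells with 1 Rspo3 UMI, at 32.25% (27.7 to 37.1%) and 13.75% (10.5 to 17.5%). Thbd was seen in 68.6% against 29.3%, Cdh13 in 74.0% against 25.7% and Lhx6 in 29.0% against 5.32%. Wnt9b and Selp were each seen in 21.7% (18.2 to 25.6%), against 3.28% and 1.04%. Msr1 was seen in 13.9% against 49.1%. Free RNA in droplets gives a floor for such shares. In 88 cholangiocyte-marked cells with under 3 Clec4g UMIs, which should lack these genes and had a median depth of 8712.5 UMIs, the thinned shares were 2.27% for Wnt2, 3.41% for Kit and 0 of 88 for Wnt9b, Selp and Ackr4, which allows up to 4.11%. The shares of Wnt2, Kit, Wnt9b, Selp and Ackr4 in Rspo3-positive cells were above those of the 88 cells. The 88 were chosen for few Clec4g UMIs and were deeper before thinning, so they may understate the floor for Rspo3-positive cells. Unthinned, their shares were 4.55% for Wnt2 and 5.68% for Kit. How much free RNA the Rspo3-positive cells hold was not tested.

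Few cells showed all of these genes at once. Of 7 genes (Wnt2, Kit, Ackr4, Ltc4s, Wnt9b, Thbd and Cdh13), at least 3 were seen in 84.1% of the 497 thinned Rspo3-positive cells, at least 4 in 66.6% and all 7 in 3.22%, with a median of 4 genes. Cells with 1 Rspo3 UMI reached at least 4 genes in 40.3% of 400 (35.4 to 45.2%). Both Wnt genes were seen in 104 of 497 (20.9%, 17.4 to 24.8%), Wnt2 alone in 341 (68.6%), Wnt9b alone in 4 (0.80%) and neither in 48 (9.66%). Wnt9b was thus nearly always seen beside Wnt2, which most of these cells carry. At 3000 UMIs a gene that is present at a low level is often missed, so a missing gene here is not absence.

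**Figure D5:**
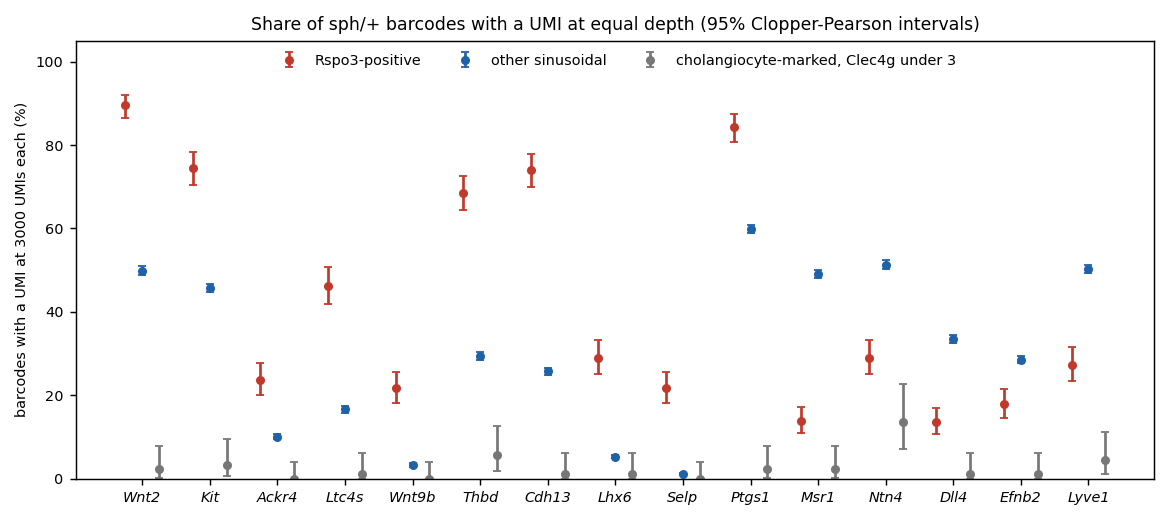
Share of cells with at least 1 UMI of 15 genes after thinning every cell to 3000 UMIs, in 497 Rspo3-positive cells (red), 9273 other sinusoidal cells (blue) and 88 cholangiocyte-marked cells with under 3 Clec4g UMIs (grey), with 95% Clopper-Pearson intervals. The first 10 genes are more often seen in the Rspo3-positive cells and the last 5 in the other sinusoidal cells.

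The Vwf limit keeps out Rspo3-positive cells with at least 2 Vwf UMIs but left in cells with 1. A Vwf UMI was held by 45 of the 552 (8.15%). After thinning to 3000 UMIs, Vwf was seen in 4.83% of Rspo3-positive cells (3.12 to 7.10%) and 0.5% of cells with 1 Rspo3 UMI (0.06 to 1.79%). Central-side, intermediate and portal-side cells, under the same limit, had 0.67%, 1.59% and 2.06%. Whether the cells with a Vwf UMI carry the Selp, Wnt9b or Fbln2 ratios was not tested. Within the quality limits, 126 sph/+ cells had at least 2 UMIs of both Rspo3 and Vwf. Of these, 49 held the Clec4g and Stab2 counts of the rule and met its division limit, at a median depth of 10952 UMIs. Another 44 had under 3 Clec4g UMIs, at a median of 4563 UMIs, close to the 4300 UMIs of the 552. The remaining cells, with at least 3 Clec4g UMIs but outside the 49, are not described here. Wnt9b stood at 80.8 CPM (71.0 to 91.6) in the 552, 218 CPM (179 to 263) in the 49 and 538 CPM (442 to 649) in the 44. Selp stood at 77.8 CPM (68.3 to 88.4) in the 552 and 306 CPM (235 to 393) in the 44. Cd9 and Fabp4 were likewise lower in the 552, with 727 and 3722 CPM, than in the 44, with 1373 CPM (1216 to 1544) and 6544 CPM (6197 to 6906). Kit, Gatm and Ltc4s were higher in the 552, with 551, 700 and 204 CPM, than in the 44, with 74.1 CPM (41.5 to 122), 4.94 CPM (0.13 to 27.5) and 44.5 CPM (20.3 to 84.4). Wnt2 stood at 875 CPM (842 to 909) in the 552 and 810 CPM (691 to 944) in the 44, so the intervals overlap. Large-vessel markers in the 552 were mixed, beside shares over all measured genes of 3.73% higher and 1.45% lower. Of 11 measured outside the rule 5 were at least 1.5-fold higher than in the other sinusoidal cells and 3 lower, at a median of 0.57. The list shares Selp and Wnt9b with that of the central side. Without the marked cells 5 were higher and 3 lower, at a median of 0.50. Clu was then no longer among the higher ones (log2 ratio 0.00) and Emcn was (0.62).

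Transcripts of other liver cells touched a set of named genes. The 10 cholangiocyte markers summed to 1012 CPM in Rspo3-positive cells and 326 CPM in the others, and 12 of the 552 cells (2.17%, 1.13 to 3.77%) against 98 of the others (0.90%) held 10 or more such UMIs. Those 12 cells held 130 to 400 of them at a median depth of 13511.5 UMIs. They carried 100% of the UMIs of Ankrd1 and Pdzk1ip1, 99.0% of those of Lcn2 and 99.2% of those of Spp1 in Rspo3-positive cells. With them the log2 ratios were 2.57 for Ankrd1, 2.44 for Lcn2, 1.91 for Pdzk1ip1 and 1.70 for Spp1, and without all marked cells they were -0.56, -0.11, -0.32 and 0.22. All 6 measured cholangiocyte markers were at least 1.5-fold higher with the marked cells and 0 of them without. Of 10 measured general hepatocyte genes 5 were at least 1.5-fold higher with the marked cells and 8 at least 1.5-fold lower without them. Both lists also set which cells were marked, so these changes follow in part from the marking rule. Of 20 immediate early and heat shock genes 5 were higher and 0 lower, both with the marked cells and without. Over all measured genes the shares were 3.73% higher and 1.45% lower with the marked cells, and 3.2% and 1.74% without. Jun, a component of AP-1, stood at 799 CPM (768 to 832) against 448 CPM (442 to 453), with 19.9% of its UMIs in the 12 cells. Atf3, a stress-induced factor, had 89.4% of its UMIs there and a log2 ratio of 0.52 without all marked cells. Mesothelial markers summed to 8.21 CPM against 10.2 CPM and marked 0 of the 552 cells.

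Gimap5 itself, a GTPase gene of immune cells and endothelium, stood at 120 CPM (108 to 132) in Rspo3-positive cells and 104 CPM (101 to 107) in the others. Its level does not check the genotype, which lies in the allele. Its neighbours Gimap4 and Gimap6 had log2 ratios of 0.11 and 0.25. All 3 were within 1.5-fold.

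With the same limits, 7 of 175 sinusoidal cells of sph/sph qualified (4.0%, 1.62 to 8.07%), against 552 of 11434 in sph/+ (4.83%, 4.44 to 5.24%), and these intervals overlap. The set the share is taken from differed: 1.34% of 13094 sph/sph cells within the quality limits held the Clec4g and Stab2 counts, against 92.9% of 12304 in sph/+. Without those limits, at least 2 Rspo3 UMIs were found in 395 sph/sph cells (3.02%) at a median depth of 7007 UMIs and in 766 sph/+ cells (6.23%) at a median depth of 4322 UMIs. Of these Rspo3-positive cells, 17.7% in sph/sph (14.1 to 21.9%) and 89.6% in sph/+ (87.2 to 91.6%) held at least 3 Clec4g UMIs. At least 2 Vwf UMIs were held by 45.1% in sph/sph (40.1 to 50.1%) and 16.4% in sph/+ (13.9 to 19.3%). Among Rspo3-positive cells those of sph/sph were deeper and pass a Clec4g or Vwf limit more easily. Over all cells within the quality limits sph/sph was the shallower library, at a median of 3969 UMIs against 4553 UMIs in sph/+. None of these shares is at equal depth.

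In these Rspo3-positive cells of each library, Wnt2 stood at 428 CPM (406 to 452) in sph/sph and 866 CPM (838 to 894) in sph/+, and Wnt9b at 272 CPM (255 to 291) in sph/sph and 142 CPM (131 to 153) in sph/+. Kit stood at 44.9 CPM (37.9 to 52.8) in sph/sph and 480 CPM (460 to 501) in sph/+, and Ackr4 at 5.22 CPM (3.04 to 8.37) in sph/sph and 84.1 CPM (75.6 to 93.2) in sph/+. Thbd, Lhx6 and Selp were higher in sph/sph, with 849, 226 and 151 CPM there and 571, 151 and 104 CPM in sph/+. Cd34 stood at 236 CPM (220 to 254) in sph/sph and 19.5 CPM (15.5 to 24.1) in sph/+. These are 1 mouse against 1 mouse, and genotype, mouse and library cannot be told apart.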

How the data were processed

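Single-cell RNA-seq libraries of 1 sph/sph and 1 sph/+ mouse were used as deposited: matrices of raw UMI counts per gene and barcode, not normalized, made with Cell Ranger 3.0 on mm10 per the submitters' processing notes, while the file headers name software version 3.1.0. The annotation release is not given in the sources used here, and gene spans come from GENCODE M21.

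Barcodes were kept at 500 genes, 1000 UMIs and at most 15% mt- UMIs, and the limits on marker UMIs were applied to unthinned counts, which favours deep barcodes. Counts were summed per group, scaled to CPM, and compared as ratios with 1 CPM added for genes of at least 20 CPM in either group. Rule genes were left out. Intervals are exact Poisson for levels, Clopper-Pearson for shares and exact binomial on the pooled count for ratios, at 95%, and cover counting error only. The ratio step was run on simulated Poisson counts summed per group, with 2-fold changes set in some genes. These counts hold no spread between cells and no marked cells, so they bear on counting error only. Shares were compared after thinning to 3000 UMIs. The floor allowed by a count of 0 in a share is the upper Clopper-Pearson bound.

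Named genes were the 15 highest and 15 lowest ratios (without mitochondrial, ribosomal, unnamed and other-cell genes), up to 4 members of each of 37 lists with the largest difference, and a set given whatever its values. Members and lists were chosen with earlier results of these data known. Scrublet marked 0.0% of barcodes at its automatic threshold and so had not worked. No doublets were removed, and leaving out its 1324 highest scores is an alternative. Python 3.11.15, numpy 2.4.6, pandas 2.3.3, scipy 1.17.1, scanpy 1.11.5 and matplotlib 3.10.9 were used. All alternatives are described after the results. Some named genes are not reported here.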

Additional observations from a re-analysis of the deposited data

How the results depend on the processing

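Each genotype is 1 library and no spread between animals can be given. No paired analysis was possible because each genotype has 1 mouse. Of 56 named genes called higher, 30 stayed past 1.5-fold in all 16 alternatives, and of 33 called lower, 24 did. Among the lower genes that did not were Ccnd1, Ctsl, Gpr182, Mfng, Angpt2, Irf8, Nrarp, Stmn1 and Ube2c. Higher genes that did not included Dkk3, Klf4 and Fbln2. Depth limits genes under about 20 CPM, whose single UMIs move the ratio. The 552 cells became 1001 with 1 Rspo3 UMI allowed. The numbers of genes at least 1.5-fold higher and lower, 262 and 102 as reported, were 306 and 160 with the mean of per-cell CPM, 335 and 203 after thinning to 3000 UMIs, and 471 and 294 when the limits were applied to thinned counts. They were 638 and 301 with a floor of 5 CPM, 128 and 51 with 50 CPM, 1516 and 759 with no floor, 144 and 59 with 1 Rspo3 UMI allowed, 357 and 167 with at least 3, and 418 and 276 in cells of 3568 to 5932 UMIs. At 2-fold they were 99 and 30. Within 1.5 times of the reported numbers were 214 and 82 with 5 CPM added, 271 and 120 with at most 8% mitochondrial UMIs, 267 and 131 with hepatocyte, mitochondrial and ribosomal genes left out of the totals, 327 and 150 without the highest Scrublet scores, 292 and 104 against cells with no Rspo3 UMI, 222 and 121 without all marked cells and 215 and 109 without the cholangiocyte-marked ones. The cause of these shifts was not tested, apart from the number of genes and cells that each setting takes in.

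Leaving out cells marked by another cell type, or by cholangiocyte markers alone, was chosen after seeing the data. The cholangiocyte and general hepatocyte lists set the marking, so values of their own genes without the marked cells follow in part from that rule. Several log2 ratios turned negative under such settings. Without all marked cells they were -0.56 for Ankrd1, -0.11 for Lcn2, -0.32 for Pdzk1ip1, -0.32 for Krt19, -0.011 for Krt8, -1.21 for Ttr, -0.94 for Ahsg, -0.71 for Fabp1, -1.60 for Trf, -1.27 for Mup20 and -0.83 for Alb, with list medians of -0.88 for general hepatocyte genes and -0.16 for cholangiocyte markers. Without the cholangiocyte-marked cells alone they were -0.56 for Ankrd1, -0.33 for Pdzk1ip1, -0.49 for Krt19, -0.11 for Wnt4, -0.012 for Prox1, -0.11 for Clu and -0.021 for the cholangiocyte median. In cells of 3568 to 5932 UMIs, which leaves out the shallowest and the deepest cells, they were -0.55 for Ankrd1, -0.21 for Lcn2, -0.34 for Pdzk1ip1, -0.30 for Krt19, -1.23 for Wnt4, -0.43 for Krt8, -0.51 for Prox1, -2.91 for Ttr, -1.22 for Ahsg, -0.59 for Fabp1, -0.55 for Trf, -1.48 for Mup20 and -1.11 for Alb, with medians of -1.24 for general hepatocyte genes and -0.046 for cholangiocyte markers. With the limits applied to thinned counts they were -0.36 for Ankrd1, -0.26 for Lcn2, -0.43 for Pdzk1ip1, -0.35 for Epcam, -0.90 for Prox1, -0.90 for Cp and -1.42 for Mup20. After thinning alone Mup20 was at -0.036 and the general hepatocyte median at -0.034. With the mean of per-cell CPM Mup20 was at -0.39, Alb at -0.024 and the general hepatocyte median at -0.32. With no floor the median of the Wnt ligand list was -0.026 over 20 genes. Against cells with no Rspo3 UMI and within the Vwf and division limits, Ube2c was at 0.41.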

Other observations

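A further set of genes outside the groups above differed between the Rspo3-positive cells and the other sinusoidal cells. Cdkn1c, a cyclin-dependent kinase inhibitor, stood at 173 CPM (159 to 189) in Rspo3-positive cells and 102 CPM in the others. Mecom, a zinc finger factor of arterial endothelium, stood at 38.4 CPM (31.8 to 46.1) against 97.8 CPM, from 68 of the 552 cells. Ldb2, a LIM domain-binding cofactor, stood at 94.9 CPM (84.3 to 107) against 171 CPM (168 to 175). Adora2a, the adenosine A2a receptor, stood at 9.2 CPM (6.11 to 13.3) against 26.9 CPM (25.5 to 28.3), from 28 and 1508 UMIs. Angpt2, an angiopoietin that antagonizes Tie2, stood at 11.8 CPM (8.28 to 16.4) against 23.7 CPM (22.5 to 25.1). Vegfc, the lymphatic growth factor, stood at 9.85 CPM (6.65 to 14.1) against 25.8 CPM (24.5 to 27.1), from 30 UMIs in 11 of the 552 cells. Its log2 ratio was -1.30, but -2.37 without the cells marked by another cell type and -0.75 against cells with no Rspo3 UMI and within the Vwf and division limits.

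Some abundant genes lay close to 1.5-fold. Lifr, the leukaemia inhibitory factor receptor, stood at 1929 CPM (1880 to 1979) in Rspo3-positive cells and 1326 CPM (1316 to 1335) in the others. Plpp1, a lipid phosphate phosphatase, stood at 1625 CPM (1580 to 1671) against 1094 CPM (1086 to 1103), and Emcn, endomucin, at 423 CPM (401 to 447) against 284 CPM (280 to 289). Their log2 ratios were 0.54, 0.57 and 0.57 with all cells, just within 1.5-fold, and 0.59, 0.60 and 0.62 without the marked cells, just past it. Plxnd1, a semaphorin receptor, was on the other side, at 501 CPM (476 to 527) against 743 CPM (736 to 750), with a log2 ratio of -0.57 that became -0.58 without the marked cells and -0.59, just past 1.5-fold, against cells with no Rspo3 UMI.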
